A study of Vitis rotundifolia with 18 samples.

Results

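Berries of 2 muscadine grape cultivars were compared in how far each gene moved between bunch closure and veraison. Muscadine is the grape Vitis rotundifolia. Noble bears dark berries and Carlos bronze ones. On the E-L scale, which numbers the growth stages of the vine, bunch closure is E-L 32 and veraison E-L 35. The quantity under study is the interaction, the Noble step (E-L 35 against E-L 32) minus the Carlos step on the log2 scale. A value above 0 means that a gene rose more, or fell less, in Noble. The comparison rests on 12 of the 18 libraries of the series, in 4 groups of 3: Noble at E-L 32, Noble at E-L 35, Carlos at E-L 32 and Carlos at E-L 35. All came from berries grown at a University of Florida research station at Citra, and no treatment is named. Of 27228 identifiers, 17472 had enough counts to be tested. The libraries held 18919160 to 30843026 expected counts, that is, RNA-seq read counts estimated per gene. Whether replicates are separate vines or harvests is not stated, so p-values here measure only how far these samples spread, and that spread may be technical.

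Veraison is the turn from berry growth to ripening. In this phase grape berries are known to soften, take up sugar, lose acid and, in dark cultivars, lay down anthocyanin pigment in the skin, and abscisic acid is known as a hormone that promotes the change. Many genes of the green, growing berry are switched down at this turn and many ripening genes are switched up. The interaction asks, gene by gene, whether 2 cultivars made this change by the same amount.

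The files name genes by identifier alone. None of the identifiers matched the reference table of the Carlos assembly (0 of 27228), so no function is given for any gene, no pathway could be counted and the tissue could not be checked against marker genes. In bulk tissue, fewer cells of a type and less RNA per cell cannot be told apart.

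3 libraries stood apart from the other replicates of their groups. The first principal component of the 500 most variable genes held 79.3% of their variance. On it the Noble E-L 32 replicates had scores of -17.5, -42.4 and -44.8, with replicate 1 apart, and the Carlos E-L 35 replicates 65.3, 64.9 and 33.6, with replicate 3 apart. The Noble E-L 35 replicates had 59.9, 56.6 and 47.3, and replicate 2 stood apart by single genes instead. Noble E-L 35 replicate 2 and Carlos E-L 35 replicate 3 held 25400 and 119400 CPM of the identifier VIT_07s0005g03420, whose levels in the other replicates at E-L 35 were 4889 and 5836 CPM in Noble and 5582 and 5341 CPM in Carlos. At E-L 32 this gene stood at 2007, 1579 and 1683 CPM in Noble and 0.527, 0 and 0.345 CPM in Carlos, so it also differed between the cultivars and stages compared here. CPM is a count divided by its library's scaled total, at 1 fixed scale for all libraries. Results are given with all 12 libraries and, where they depend on it, without these 3.

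Noble and Carlos took different steps in 2670 of 17472 genes, 15.3% of those tested (edgeR quasi-likelihood test, Benjamini-Hochberg adjusted p under 0.05). The interaction was above 0 in 1328 genes (7.60%) and below 0 in 1342 (7.68%). At 2-fold or more, 791 were above 0 (4.53%) and 915 below (5.24%). Without the 3 libraries, 7722 of 17570 genes were called (43.9%), 3778 above 0 (21.5%) and 3944 below (22.4%), with 1741 (9.91%) and 1810 (10.3%) at 2-fold or more. With the 6 E-L 38 libraries in the fit, 3108 of 17657 were called (17.6%). Of the 2670 genes called with 12 libraries, 2611 were called again with the same sign without the 3, and 0 were called with the opposite sign. Both fits share libraries, so the repeated calls are not independent. Likeness of the steps was counted over all tested genes, called or not, so this count is not a set apart from the called genes. The 95% interval of the interaction lay within 2-fold either way for 7191 genes (41.2% of those tested), and for 8582 of 17570 (48.8%) without the 3 libraries. A called gene can be among them where its difference was small. For genes without a call whose interval reached beyond 2-fold, the data set neither a difference nor a likeness within 2-fold.

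Berries of both cultivars moved mostly the same way. The step itself was called in 48.4% of the tested genes in Noble and 52% in Carlos, and in 65.5% and 71.3% without the 3 libraries. Of 5734 genes called in both steps, 5421 (94.5%) went in the same direction, and in 3105 of these the Carlos step was the larger and in 2316 the Noble step. Without the 3 libraries, 8149 of 9286 (87.8%) went in the same direction, with the larger step in Carlos for 4611 and in Noble for 3538. The median size of the step over all tested genes was 0.549 in Noble and 0.587 in Carlos (log2), and 0.617 and 0.678 without the 3 libraries. Pearson's r between the steps was 0.666 over 17472 genes, a description only, since genes are not independent and all 12 libraries share 1 scaling. On the first component the E-L 32 libraries of Noble, at -17.5 to -44.8, lay nearer to the E-L 35 libraries, at 33.6 to 65.3, than those of Carlos did, at -74 to -74.6. The part of this gap in the sizes of the steps was not tested.

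**Figure D1:**
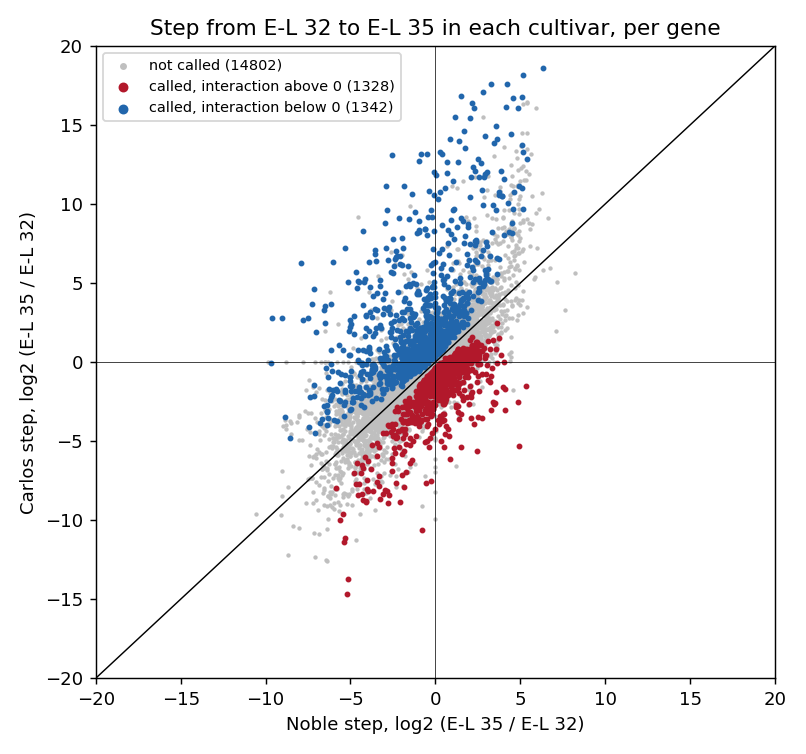
Step from E-L 32 to E-L 35 in Noble (horizontal axis) and in Carlos (vertical axis) on the log2 scale, 1 point per gene. Red points are the 1328 genes called with an interaction above 0, blue points the 1342 called below 0, grey points the rest, and the diagonal marks equal steps; blue points reach far up, where Carlos rose much more than Noble.

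The called genes fell into distinct courses. The most frequent was a step called in Carlos alone, with 527 rises (19.7% of 2670) and 491 falls (18.4%), beside 10.5% and 8.69% of all tested genes. A step called in Noble alone came next, with 331 rises (12.4%) and 327 falls (12.2%), beside 7.5% and 8.09% of all tested genes. Opposite steps, both called, were seen in 313 genes. Of these, 177 rose in Noble and fell in Carlos (6.63% of the called, beside 1.01% of all tested genes) and 136 did the reverse (5.09%, beside 0.778%), and every gene with called opposite steps also had a called interaction. Both cultivars rose in 272 of the called genes, 211 of them more in Carlos (7.9%, beside 8.42% of all tested genes) and 61 more in Noble (2.28%, beside 5.25%). Both fell in 391, of which 255 fell more in Carlos (9.55%, beside 9.35%) and 136 more in Noble (5.09%, beside 8.01%). The same-direction courses were near or below their share of all tested genes. The interaction is the difference of the same steps, so a call on it by itself favours opposite steps and steps called in 1 cultivar alone. Nothing is read from the distance between these shares. In 18 genes neither step was called on its own. A step called in 1 cultivar alone is counted here only where the interaction itself was called.

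**Figure D2:**
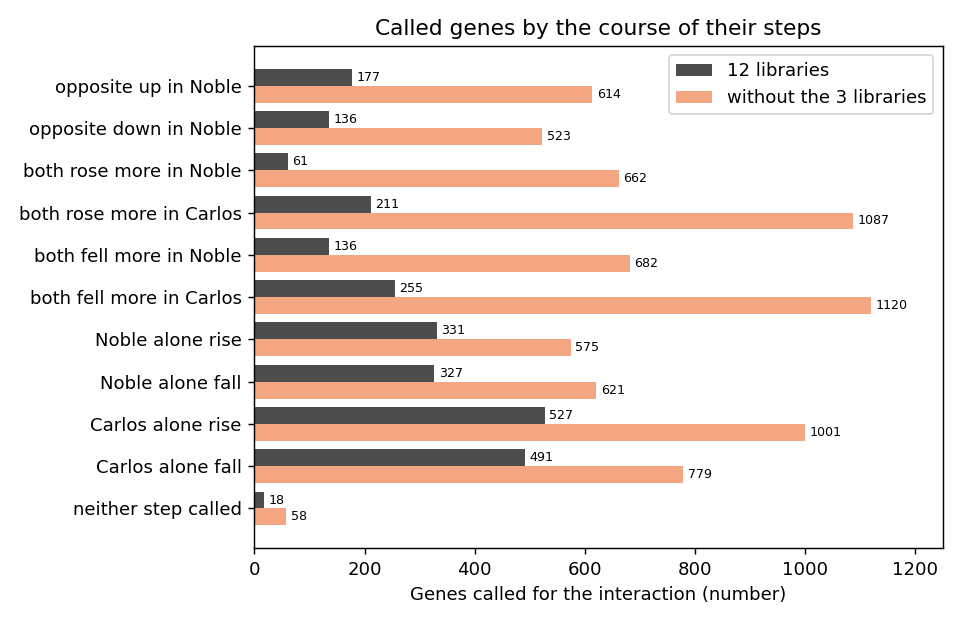
Number of genes called for the interaction (horizontal axis) by the course of their steps, with all 12 libraries (dark bars) and without the 3 libraries (light bars); numbers stand at the bar ends. With 12 libraries the steps called in Carlos alone were the most frequent courses, at 527 and 491 genes, and without the 3 libraries the same-direction courses with the larger step in Carlos were, at 1087 and 1120.

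Large interactions lay mostly on one side. At 16-fold or more, a size chosen after the data were examined, 306 genes lay below 0 (1.75% of those tested) and 80 above (0.458%). Most of the 306 genes were already expressed in Noble at bunch closure, when they were low in Carlos. At E-L 32, 274 of them were called higher in Noble and 1 higher in Carlos, where 12.9% and 12.8% of all tested genes were so called (25.8% in all). At E-L 35, 252 of the 306 showed no called difference, 52 were called higher in Carlos and 2 higher in Noble, where the background was 8.17% and 8.45% (16.6% in all). In Carlos 246 of them rose and 7 fell, where 24.9% of all tested genes rose and 27.1% fell. In Noble 61 rose and 120 fell, where 22.2% rose and 26.2% fell. The rule for these genes uses the same contrast, so nothing is read from these shares. With group means held at no less than the floor of 3 counts per group, the median Noble level minus the Carlos level was 5.03 on the log2 scale at E-L 32 and -1.13 at E-L 35. The median over these genes was 6.61, 5.38 and 4.84 CPM in the Noble E-L 32 libraries and 0.119, 0.0788 and 0.124 CPM in those of Carlos. The genes were chosen by the interaction in these same libraries, so nothing is read from the distance between the medians. At E-L 35 the median was 1.41, 3.13 and 2.48 CPM in Noble and 2.44, 2.58 and 6.73 CPM in Carlos, with the highest value in the Carlos library that stood apart. These medians are on the scale of all 18 libraries. At E-L 38, which the comparison did not use, the 6 library medians ran from 0.441 to 2.17 CPM. In Carlos E-L 32, 115 of the 306 genes had 3 counts or fewer over the group. Without the 3 libraries 360 genes lay below 0 at this size and 188 above, and of the 360, 306 were called higher in Noble at E-L 32, beside 25.2% of all genes there, while at E-L 35, 207 were called higher in Carlos, 25 higher in Noble and 128 showed no called difference. The 360 genes were chosen anew in the fit without the 3 libraries, and the 306 were not counted again there. Gaps at E-L 35 were called in 46.8% of all tested genes in that fit, against 16.6% with 12 libraries. The numbers of genes without a called gap at E-L 35 are therefore not compared between the fits. Because the interaction is the gap at E-L 35 minus that at E-L 32, these counts describe where the difference lay and are not a separate test.

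Most of the 80 genes with large interactions above 0 fell in Carlos. There 71 of the 80 fell, beside 27.1% of all tested genes. In Noble 28 fell and 30 rose, beside 26.2% and 22.2%. At E-L 32, 53 of them were called higher in Carlos and 0 higher in Noble, beside 12.8% and 12.9%. At E-L 35, 43 were called higher in Noble and 1 higher in Carlos, beside 8.45% and 8.17%. Their library medians fell from 6.43, 5.87 and 6.37 CPM at E-L 32 to 0.0982, 0.110 and 0.117 CPM at E-L 35 in Carlos. In Noble they were 1.53, 1.06 and 1.28 CPM and then 0.536, 0.704 and 0.769 CPM. These genes too were chosen by the interaction in the same libraries, so nothing is read from the shares or from the distance between the stages.

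**Figure D3:**
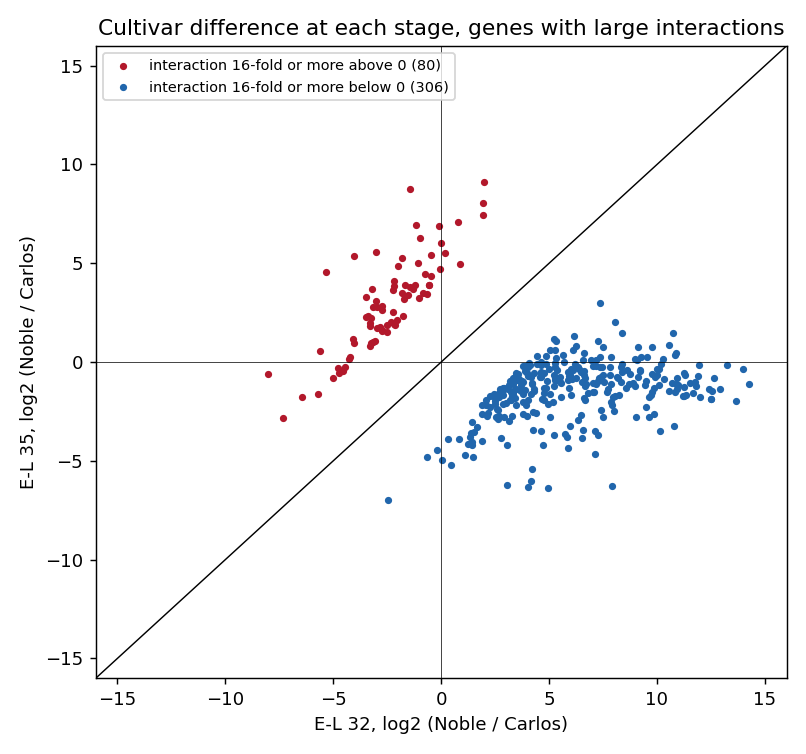
Difference between Noble and Carlos at E-L 32 (horizontal axis) and at E-L 35 (vertical axis), log2 of Noble over Carlos, for the genes with a called interaction of 16-fold or more. The 306 blue genes (interaction below 0) lie mostly to the right, with 274 called higher in Noble at E-L 32 and a median of -1.2 at E-L 35. The 80 red genes (above 0) lie to the left or at the top. The diagonal marks equal differences at both stages.

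Over all 2670 called genes the stage with the larger cultivar gap depended on the libraries used. The gap was larger at E-L 32 for 1636 genes (61.3%) and at E-L 35 for 1034, and without the 3 libraries the balance turned, with 3660 of 7722 (47.4%) larger at E-L 32. Over all tested genes the share larger at E-L 32 was 52.6% with 12 libraries and 47.9% without the 3, so without them the called genes were near the share of all genes. Gaps without them were called in 52.3% of all tested genes at E-L 32 and 46.8% at E-L 35. The sign of the gap turned between the stages in 2128 of the called genes (79.7%), beside 45.6% of all tested genes, and a call on the difference of the gaps by itself favours such a turn. In 314 of them the gap was called at both stages with opposite signs, 198 with Noble going from below Carlos to above and 116 the other way. Without the 3 libraries these counts were 1156 and 959. A called interaction favours such crossings too, and they were not counted over all tested genes, so nothing is read from their number.

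The genes first described singly come from 1062 whose call, sign and size held whichever library was left out. They were called with the same sign in all 12 fits without 1 library and in the fit without the 3, and their interaction moved by less than 0.58 (log2) in each. Of the 1062, 626 lay above 0 and 436 below. Requiring also 10 CPM or more as the mean of 1 group, more than 3 counts in each group and whole counts in all 12 libraries left 856. They were selected for stability, so they say nothing about the stability of the rest, and genes described from outside these 856 are introduced as such.

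Among opposite courses, VIT_13s0067g01970 traded places between the cultivars. It stood at 22.7, 19.1 and 18.6 CPM in Noble and 178.5, 175.3 and 179.5 CPM in Carlos at E-L 32 (replicates 1 to 3). At E-L 35 it stood at 130.7, 108.3 and 102.4 CPM in Noble and 12.8, 16.6 and 19.6 CPM in Carlos. No library of one cultivar overlapped the other at either stage, and the order was reversed between the stages. Its interaction was 5.94 ± 0.23 (SE, 95% interval 5.43 to 6.45, adjusted p = 1.3e-06). VIT_18s0001g13960 stood at 5.21, 5.15 and 4.74 CPM in Noble and 6.86, 7.29 and 6.63 CPM in Carlos at E-L 32. The libraries there did not overlap, but the gap was not called (edgeR, adjusted p = 0.24). At E-L 35 it had parted to 18.9, 7.70 and 17.04 CPM in Noble and 0.736, 0.690 and 0.679 CPM in Carlos. Its Carlos means went from 6.93 ± 0.336 CPM to 0.702 ± 0.0301 CPM (SD, n = 3), with an interaction of 4.82 ± 0.42 (adjusted p = 9.8e-05). The 130 genes of this course among the 856 had a median interaction of 1.29 and a median step of 0.613 in Noble and -0.634 in Carlos.

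In the reverse course VIT_08s0007g04360 fell in Noble and rose from a low level in Carlos. Noble libraries went from 11.3, 13.4 and 13.3 CPM to 0.186, 0.409 and 0.489 CPM. Carlos libraries went from 0.403, 0.410 and 0.388 CPM to 2.13, 1.43 and 1.26 CPM, and its interaction was -7.09 ± 0.44 (SE, 95% interval -8.06 to -6.12, adjusted p = 1.4e-05). VIT_05s0094g00990 overlapped between the cultivars at E-L 32, at 7.01, 5.83 and 8.01 CPM in Noble and 6.05, 4.67 and 6.25 CPM in Carlos. At E-L 35 it had fallen to 1.77, 4.53 and 2.31 CPM in Noble and risen to 45.7, 41.9 and 42.5 CPM in Carlos. The interaction was -4.20 ± 0.41 (adjusted p = 0.00022). At E-L 38 its 6 libraries ran from 0.810 to 34.9 CPM. The 49 genes of this course had a median interaction of -1.15.

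Among the genes named from the 856, the interactions farthest from 0 were of rises called in Carlos alone. VIT_16s0013g00880 stood at 474.5, 411.2 and 411.7 CPM in Noble at E-L 32, where Carlos had 0.279, 0.205 and 0.129 CPM. At E-L 35 the levels were 258.8, 631.9 and 325.9 CPM in Noble and 748.0, 685.9 and 1255 CPM in Carlos. Its Noble libraries were high at both stages, and Carlos went from near absence to above every Noble library. The interaction was -12.11 ± 0.61 (SE, 95% interval -13.47 to -10.76, adjusted p = 3.8e-06). VIT_14s0066g00700 ran the same course, at 562.1, 514.6 and 512.2 CPM and then 596.6, 1105 and 657.4 CPM in Noble, and at 1.12, 0.492 and 0.560 CPM and then 1396, 1302 and 1927 CPM in Carlos. Its interaction was -10.45 ± 0.50 (adjusted p = 3.6e-06), and both genes lay at their highest in the Carlos library that stood apart. These 2 genes were the extremes of their course: the 114 genes of it had a median interaction of -0.989.

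Falls called in Carlos alone ran the other way. VIT_03s0038g01960 was at 0.507, 0.845 and 0.961 CPM in Noble and 20.7, 21.7 and 22.2 CPM in Carlos at E-L 32. At E-L 35 both were low, at 1.02, 0.409 and 0.445 CPM in Noble and 1.10, 0.598 and 0.534 CPM in Carlos, and the libraries of the cultivars overlapped. Its interaction was 4.49 ± 0.55 (adjusted p = 0.00067). VIT_15s0048g01750 went in Noble from 110.2, 101.0 and 109.7 CPM to 156.7, 109.3 and 122.0 CPM, and its step there was not called. In Carlos it fell from 372.1, 361.7 and 377.9 CPM to 26.5, 24.8 and 55.1 CPM, from above Noble to below it, with an interaction of 3.66 ± 0.38 (adjusted p = 0.0003). The 171 genes of this course had a median interaction of 0.982 and a median Noble step of 0.0786.

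**Figure D4:**
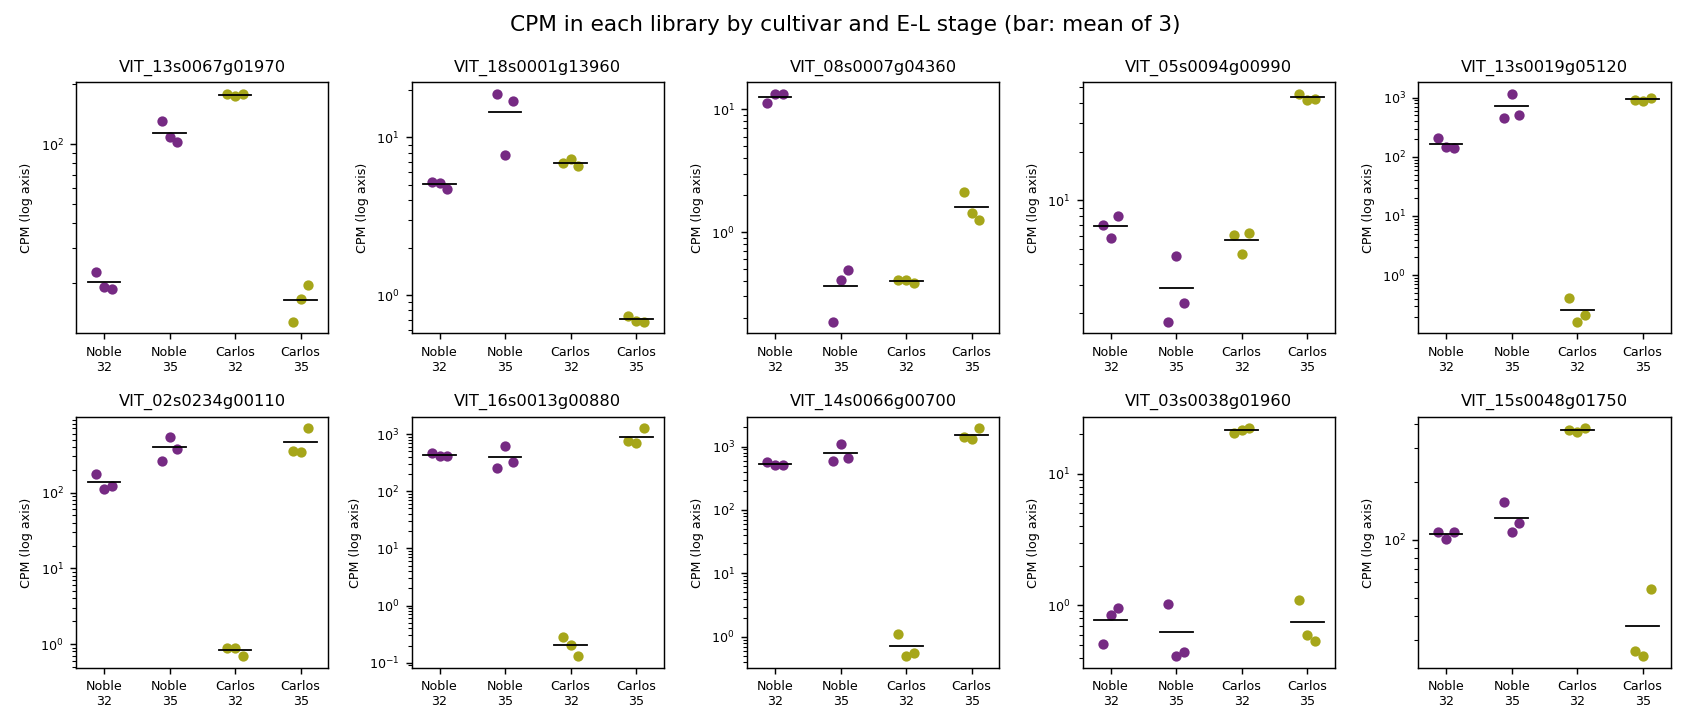
CPM in each of the 12 libraries (log axis) for 10 genes of the opposite courses, of the courses called in Carlos alone and of the course that rose more in Carlos; points are libraries, purple for Noble and olive for Carlos, and bars are group means of 3. VIT_16s0013g00880, VIT_14s0066g00700, VIT_13s0019g05120 and VIT_02s0234g00110 lie near or below 1 CPM in Carlos at E-L 32 and far higher in the other 3 groups.

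Among the 109 of the 856 genes with a rise called in Noble alone, the interactions reached 3.72. VIT_02s0025g04130 rose in Noble from 69.5, 49.5 and 47.2 CPM to 374.6, 263.8 and 370.4 CPM. In Carlos it stood at 300.5, 295.7 and 290.2 CPM at E-L 32 and at 343.1, 358.5 and 122.1 CPM at E-L 35, and the cultivars overlapped at E-L 35. The interaction was 2.71 ± 0.48 (adjusted p = 0.0049). VIT_01s0026g01020 went from 14.4, 10.1 and 9.19 CPM to 94.5, 19.6 and 73.1 CPM in Noble, with its lowest veraison value in the Noble library that stood apart. In Carlos the levels were 47.4, 49.99 and 50.4 CPM and then 28.01, 26.98 and 7.13 CPM, and its interaction was 3.72 ± 0.80 (adjusted p = 0.013).

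VIT_13s0019g03360 and VIT_07s0005g03990 had a fall called in Noble alone. Their Carlos steps, -0.14 and -0.54, were not called (edgeR, adjusted p = 0.8 and 0.09). The first stood at 18.9, 19.5 and 17.2 CPM at E-L 32 and 0, 0.341 and 0.400 CPM at E-L 35 in Noble, while in Carlos it stayed low, at 1.55, 2.05 and 2.20 CPM and 1.88, 2.02 and 1.31 CPM. Its Noble libraries were above those of Carlos at bunch closure and below them at veraison with an interaction of -6.01 ± 0.68 (adjusted p = 0.00049). VIT_07s0005g03990 fell from 11.8, 12.97 and 12.8 CPM to 0.279, 0.545 and 0.356 CPM in Noble and stood at 2.02, 1.72 and 2.20 CPM and 1.10, 1.20 and 1.80 CPM in Carlos, with the same change of order and an interaction of -4.41 ± 0.37 (adjusted p = 8.2e-05).

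Both genes named for a larger rise in Carlos started there from near absence. VIT_13s0019g05120 had 0.403, 0.164 and 0.215 CPM in Carlos at E-L 32 against 204.6, 148.0 and 139.3 CPM in Noble. At E-L 35 Carlos had 928.0, 869.1 and 999.8 CPM and Noble 448.0, 1165 and 513.5 CPM, and the ranges overlapped. The interaction was -9.61 ± 0.60 (adjusted p = 1.4e-05), and at E-L 38 the 6 libraries ran from 367.6 to 1810 CPM. VIT_02s0234g00110 stood at 0.900, 0.901 and 0.689 CPM in Carlos and 177.7, 111.8 and 121.2 CPM in Noble at E-L 32. It reached 353.7, 347.3 and 700.2 CPM and 264.4, 538.8 and 377.8 CPM at E-L 35, again with overlap, and its interaction was -7.60 ± 0.53 (adjusted p = 2.4e-05).

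The course that rose in both and more in Noble held 61 genes with 12 libraries, 20 to 174 with 1 library left out and 662 without the 3. VIT_12s0028g03010 lay near the same level in both cultivars at E-L 32, at 3.55, 2.37 and 1.53 CPM in Noble and 3.48, 3.56 and 3.83 CPM in Carlos. At E-L 35 every Noble library, at 35.5, 29.2 and 35.99 CPM, was above every Carlos library, at 11.0, 10.4 and 9.80 CPM, and the interaction was 2.24 ± 0.33 (adjusted p = 0.0019). VIT_18s0001g11680 differed at the start, with 1.34, 0.591 and 0.819 CPM in Noble and 5.99, 5.70 and 5.43 CPM in Carlos. It met at E-L 35, at 8.47, 14.6 and 9.61 CPM and 9.53, 9.88 and 10.3 CPM, with an interaction of 2.78 ± 0.38 (adjusted p = 0.0013).

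Of the 4 genes named for falls in both cultivars, 3 differed at E-L 32 and overlapped at E-L 35. VIT_10s0092g00360 fell from 11.6, 9.21 and 10.6 CPM to 0.186, 0.307 and 0.445 CPM in Noble and from 1.24, 0.820 and 1.94 CPM to 0.245, 0.598 and 0.582 CPM in Carlos, an interaction of -3.55 ± 0.59 (adjusted p = 0.0035). VIT_04s0008g00530 fell from 10.6, 10.9 and 9.61 CPM to 0.651, 0.443 and 0.267 CPM in Noble and from 2.20, 1.89 and 2.71 CPM to 0.531, 0.506 and 1.02 CPM in Carlos, with an interaction of -2.78 ± 0.47 (adjusted p = 0.0038). For both genes Noble was above Carlos in every library at E-L 32, and the cultivars overlapped at E-L 35. The greater fall in Carlos was seen in VIT_08s0007g00440, from 81.8, 74.0 and 85.5 CPM to 1.15, 0.919 and 1.26 CPM, where Noble went from 18.4, 15.9 and 16.6 CPM to 7.49, 3.34 and 8.72 CPM, and the interaction was 4.79 ± 0.42 (adjusted p = 9.8e-05). Its order was reversed, with Carlos above Noble at bunch closure and below at veraison. VIT_06s0080g00760 fell from 156.8, 160.1 and 164.6 CPM to 0.204, 0.460 and 0.437 CPM in Carlos and from 19.7, 20.7 and 21.3 CPM to 0.140, 1.70 and 1.69 CPM in Noble, with overlap at E-L 35 and an interaction of 4.69 ± 0.74 (adjusted p = 0.0027).

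The most abundant of the 856 genes was VIT_04s0008g05010, which rose in Noble and fell in Carlos. Noble libraries stood at 2121, 1527 and 1704 CPM at E-L 32 and 6264, 5964 and 5497 CPM at E-L 35. Those of Carlos stood at 2768, 2886 and 3172 CPM and then 1778, 1768 and 1010 CPM. Its interaction was 2.68 ± 0.31 (adjusted p = 0.00053). VIT_08s0056g01570 fell in both, from 1429, 1604 and 1578 CPM to 1096, 778.0 and 994.5 CPM in Noble and from 2152, 2201 and 2181 CPM to 694.2, 690.4 and 669.8 CPM in Carlos, and its interaction was 0.98 ± 0.18 (adjusted p = 0.0065). Per transcript length, the deposited TPM averaged 4646 for VIT_04s0008g05010 and 391.0 for VIT_08s0056g01570 in Noble at E-L 35.

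Outside the 856, some called genes were at or near 0 in a group, and for these levels are given in place of a fold change of steps. VIT_06s0004g03260 had 1 count over the 3 Carlos libraries at E-L 32 and 106.3, 96.1 and 82.4 CPM in Noble. At E-L 35 it stood at 301.9, 284.5 and 3041 CPM in Carlos, the last of them far above the others, and at 273.5, 793.6 and 335.2 CPM in Noble (adjusted p of the interaction 0.00099, and 5.5e-11 without the 3 libraries). VIT_09s0002g04850 had 3 counts over the Carlos E-L 32 group against 82.2, 81.2 and 62.2 CPM in Noble, and then 40.3, 30.4 and 214.1 CPM in Carlos and 2.47, 21.6 and 5.43 CPM in Noble (adjusted p 0.00067). Both were present in Noble at bunch closure and all but absent in Carlos.

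VIT_04s0008g04160 ran the other way, from 55.8, 54.95 and 55.9 CPM in Carlos at E-L 32 to 2 counts over the group at E-L 35. Noble had 1.84, 1.31 and 1.03 CPM and then 0.512, 0.886 and 1.02 CPM (adjusted p 7.1e-06). VIT_10s0042g00080 fell in Carlos from 126.1, 132.2 and 132.4 CPM to 0 counts, which allows up to 0.0449 CPM (3 counts over the group). In Noble it fell from 7.01, 8.24 and 8.37 CPM to 0, 0 and 0.667 CPM (adjusted p 0.02). Its call rested on Noble E-L 35 replicate 3, the one E-L 35 library of either cultivar with counts, and without that library the adjusted p was 1.

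Single libraries set how many genes could be called. Leaving out Carlos E-L 35 replicate 3 alone gave 5408 called genes, and leaving out Noble E-L 35 replicate 2 alone gave 3674. Without any one of the other 10 libraries the count lay between 1514 and 2249, below the 2670 of the full set. Of the 2670, 2629 were kept without Carlos E-L 35 replicate 3 (98.5%), and between 1499 and 2512 without each of the others. Called genes with an interaction below 0 held 45.0% of the counts of Carlos E-L 35 replicate 3 and 17.5% of Noble E-L 35 replicate 2, against 13.3% and 13.5% in the other Carlos and 8.14% and 8.79% in the other Noble libraries of that stage.

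**Figure D5:**
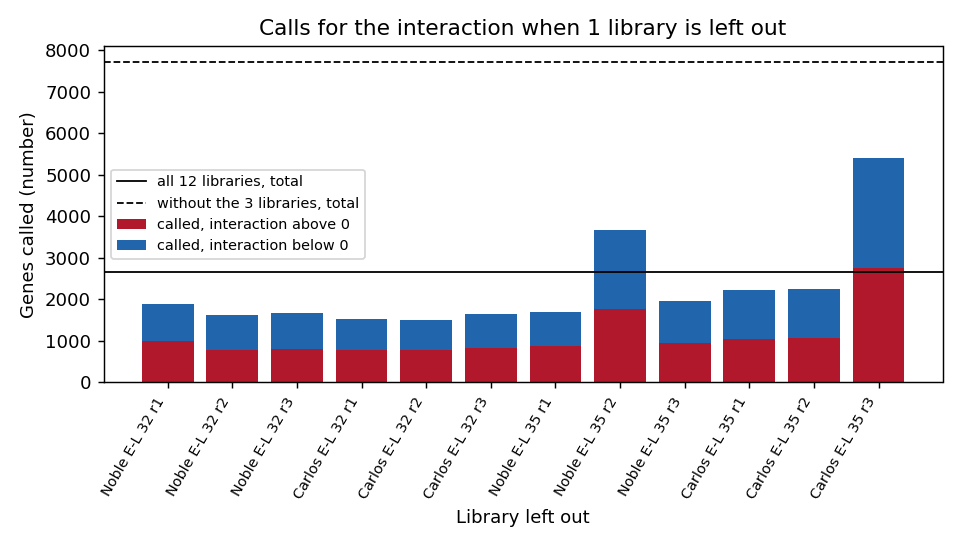
Genes called for the interaction (vertical axis, number) when the library named on the horizontal axis is left out, split into those above 0 (red) and below 0 (blue). The solid line is the 2670 genes called with all 12 libraries and the dashed line the 7722 without the 3 libraries; bars without Carlos E-L 35 replicate 3 and without Noble E-L 35 replicate 2, at 5408 and 3674, are the 2 above the solid line.

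Of the 2670 calls, 59 were not made again without the 3 libraries, 3 of them because the gene was not tested there. VIT_19s0015g02680 stood at 1446, 1454 and 29.5 CPM in Carlos at E-L 35, at 13.9, 0.422 and 0 CPM in Noble at E-L 32, at 5.07, 2.96 and 27.3 CPM in Noble at E-L 35 and at 0.248, 0.123 and 0.0431 CPM in Carlos at E-L 32. Its interaction was -11.32 ± 2.83 (adjusted p = 0.024) with 12 libraries and -6.87 without the 3 (adjusted p = 0.11), and its counts were not whole in 11 libraries, so its reads were partly shared with other genes and its value is uncertain. Without Noble E-L 32 replicate 1 alone its interaction was -6.78 (adjusted p = 0.26), and the call also ended without any single Carlos E-L 32 library or Noble E-L 35 replicate 1, at adjusted p of 0.065 to 0.071. VIT_07s0005g04770 fell in Noble from 12.8, 19.9 and 17.7 CPM to 0.326, 0.375 and 0.890 CPM. In Carlos it stood at 0.217, 0 and 0.0861 CPM and then 0.0818, 0 and 1.80 CPM, where replicate 3 held nearly all of the signal, and its interaction moved from -7.40 ± 1.60 (adjusted p = 0.013) to -3.68 (adjusted p = 0.18). Without that replicate alone it was -3.74 (adjusted p = 0.22). On the other side, VIT_09s0002g08650 had an interaction of 4.14 ± 0.88 (adjusted p = 0.012) with 12 libraries and 3.34 without the 3 (adjusted p = 0.058), and VIT_14s0060g00330 1.69 ± 0.51 (adjusted p = 0.047) and 0.99 (adjusted p = 0.084). VIT_14s0060g00330 kept its call in 3 of the 12 fits without 1 library. It was lost without any single E-L 32 library, without Noble E-L 35 replicate 2 or 3 and without Carlos E-L 35 replicate 2, at adjusted p of 0.075 to 0.1, and without Noble E-L 35 replicate 2 its interaction was 1.10.

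A further 5092 genes tested in both fits were called only without the 3 libraries. VIT_06s0009g02920 stood at 59.4, 59.3 and 1.17 CPM in Carlos at E-L 35, where replicate 3 lay far below the others, and at 9.40, 7.62 and 9.69 CPM in Carlos at E-L 32. In Noble it stood at 16.8, 14.3 and 15.5 CPM and then 2.88, 6.13 and 3.20 CPM. Its adjusted p was 0.054 with 12 libraries, and its interaction without the 3 was -5.05 (adjusted p = 5.7e-10). Its counts were not whole in any of the 12 libraries, so its value is uncertain. VIT_08s0007g02460 rose in both cultivars, to 6.98, 292.4 and 5.16 CPM in Noble and 31.8, 31.5 and 756.6 CPM in Carlos, from 2.08, 0.929 and 0.926 CPM and 0.217, 0.0410 and 0.215 CPM. The libraries that stood apart were its highest in both, and its adjusted p went from 0.34 to 3e-06. Its interaction was -4.38 with 12 libraries, -8.45 without Noble E-L 35 replicate 2 and -1.25 without Carlos E-L 35 replicate 3. VIT_13s0019g01920 and VIT_13s0064g01660 fell from E-L 32 to E-L 35 in both cultivars. The first stood at 0.0931, 2.93 and 1.33 CPM in Noble and 0, 0 and 2.09 CPM in Carlos at E-L 35, the second at 0.0465, 0.0682 and 3.92 CPM and 0, 0 and 0.291 CPM, and their adjusted p went from 0.088 to 0.00038 and from 0.15 to 0.011. Without Carlos E-L 35 replicate 3 alone the adjusted p of VIT_13s0019g01920 was 0.0018. Without Noble E-L 35 replicate 3 alone the interaction of VIT_13s0064g01660 was -0.31 (adjusted p = 0.9). Counts were not whole in 2 libraries for VIT_13s0019g01920 and in 7 for VIT_13s0064g01660, so their values are uncertain too.

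Other measures of the files describe the called genes further. Their median length was 1543 bases, beside 1468 over all tested genes, with 1706 for those above 0 and 1395 for those below. The median of their mean level was 25.3 CPM (36.6 above 0 and 15.2 below), beside 16.7 CPM. Counts were not whole in some library for 9.89% of them, beside 11.4%. Of genes called above 0 with a next tested identifier in number order, 146 of 1320 (11.1%) had that neighbour called above 0 too, where 7.62% of all 17293 neighbour pairs held such a second gene. Below 0 it was 145 of 1330 (10.9%), beside 7.64%. What the numbers in the identifiers stand for is not given in the files, and these shares are descriptions without a test.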

How the data were processed

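RNA of muscadine berries was sequenced from directional libraries after TRIZOL extraction and DNase treatment, per the labels' protocols. STAR 2.7.6a and RSEM 1.3.3 were used, per the submitters' processing notes. No source used here gives the genome build, the annotation or the strand setting. Per the file headers, each library has an expected count, a TPM and an FPKM per gene. The deposited expected counts divide a read among the genes it matches. Deposited TPM, which divide by transcript length, were used for 2 levels only. The FPKM values deposited by the authors were not used.

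Expected counts were rounded. Genes were filtered with filterByExpr (minimum count 10), scaled by TMM and tested by quasi-likelihood in edgeR 4.0.16 (R 4.3.3), with 1 coefficient for each of the 4 groups and 12 libraries. P-values were adjusted by Benjamini-Hochberg over all tested genes, and a gene was called under 0.05. The SE is the absolute log2 value over the root of F. CPM are rounded counts over the TMM-scaled totals, and those at E-L 38 use a scaling over all 18 libraries. Principal components used log2(CPM + 0.5). Only a factor that multiplies the counts of a gene equally at both stages of a cultivar cancels in the interaction. Whether unequal read matching acted in this way was not tested.

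Alternatives were RLE and upper-quartile scaling, 2 other filters, DESeq2 1.42.0, limma 3.58.1 (voom, without and with library weights), robust edgeR, all 18 libraries, each library left out, the 3 libraries left out together, the replicate number as a block, and genes with whole counts alone. Named genes are, among the stable genes described in the text, the extremes of each course by the size of the interaction, plus the most abundant, genes near 0 in a group and genes whose call differed between the fits with and without the 3 libraries. The rule first allowed up to 4 genes per direction of opposite courses and 3 abundant ones, and was cut to 2 of each once no identifier could be matched to a name. The members, courses and lists were chosen with earlier results of these data known. Planned pathway lists could not be made (0 identifiers matched). The code was tested on simulated data. Every replicate pair differed beyond sampling noise, with a chi-square over its degrees of freedom of 2.97 or more. Intervals and floors cover counting error and replicate spread as stated, and no molecular identifiers are named that would mark PCR copies.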

Additional observations from a re-analysis of the deposited data

Results flagged for a closer look

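The difference between cultivars in the step was itself tested, which marks 2670 genes and the single genes given here by their interaction (log2, edgeR, adjusted p under 0.05). Opposite courses were VIT_13s0067g01970 at 5.94, VIT_18s0001g13960 at 4.82, VIT_08s0007g04360 at -7.09 and VIT_05s0094g00990 at -4.20. Rises in both were VIT_18s0001g11680 at 2.78, VIT_12s0028g03010 at 2.24, VIT_13s0019g05120 at -9.61 and VIT_02s0234g00110 at -7.60. Falls in both were VIT_10s0092g00360 at -3.55, VIT_04s0008g00530 at -2.78, VIT_08s0007g00440 at 4.79 and VIT_06s0080g00760 at 4.69. Steps called in Noble alone were VIT_01s0026g01020 at 3.72, VIT_02s0025g04130 at 2.71, VIT_13s0019g03360 at -6.01 and VIT_07s0005g03990 at -4.41. Steps called in Carlos alone were VIT_16s0013g00880 at -12.11, VIT_14s0066g00700 at -10.45, VIT_03s0038g01960 at 4.49 and VIT_15s0048g01750 at 3.66. The most abundant were VIT_04s0008g05010 at 2.68 and VIT_08s0056g01570 at 0.98. Calls that ended without the 3 libraries were VIT_09s0002g08650 at 4.14, VIT_14s0060g00330 at 1.69, VIT_19s0015g02680 at -11.32 and VIT_07s0005g04770 at -7.40. Groups of 3 libraries are too small for a test of single outlying values.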

How the results depend on the processing

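Limits. The count of called genes depended on which libraries entered the fit and on how they were weighted, and the cause was not tested. Totals of 18919160 to 30843026 expected counts put the floor of 3 counts over a group at 0.0376 to 0.0449 CPM. Group levels below it rest on 3 counts or fewer, and 0 counts over a group allow a level up to it.

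With all 12 libraries 2670 genes were called. RLE scaling gave 2668, upper-quartile scaling 2724, no filter 2431, a filter at 5 CPM 2489, robust edgeR 2662, limma-voom 2706, whole counts alone 2464 and all 18 libraries 3108. Upper-quartile scaling moved the median interaction of all genes from -0.039 to -0.117 and the share of calls above 0 from 49.7% to 41.5%. DESeq2 gave 3991, of which 2048 lay below 0. With library quality weights limma-voom gave 7507 genes, 3865 above and 3642 below 0, with 1765 and 1717 at 2-fold or more.

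Without the 3 libraries 7722 were called, 3778 above and 3944 below 0, with 1741 and 1810 at 2-fold or more and 188 above 0 at 16-fold. The gap was then called in 9181 genes at E-L 32 (4502 with 12 libraries) and 8216 at E-L 35 (2904). The courses then held 614 and 523 opposite genes (up and down in Noble), 662 and 1087 that rose more in Noble and in Carlos, 682 and 1120 that fell more in Noble and in Carlos, 575 rises and 621 falls in Noble alone, 1001 rises and 779 falls in Carlos alone and 58 with neither step called (31 with all 18 libraries). The gap was larger at E-L 32 in 3660 and at E-L 35 in 4062, with a change of sign in 5216.

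Leaving out 1 library at a time gave 1514 to 5408 called genes, 779 to 2760 above 0 and 734 to 2648 below, 532 to 1530 and 574 to 1356 at 2-fold or more, and 60 to 174 above and 225 to 375 below 0 at 16-fold. Steps were called in 6797 to 10696 genes in Noble and 7598 to 11085 in Carlos, and the gap at bunch closure was called in 2872 to 7336, that at veraison in 1565 to 5601. Opposite courses held 108 to 313 (up in Noble) and 84 to 259 (down), rises in both 20 to 174 (more in Noble) and 118 to 839 (more in Carlos), falls in both 51 to 272 and 150 to 999, Noble alone 170 to 499 rises and 175 to 500 falls, Carlos alone 269 to 814 rises and 281 to 763 falls, and neither step 0 to 47. The gap was larger at E-L 32 in 990 to 2791 and at E-L 35 in 524 to 2617, with a change of sign in 1238 to 3809, and the interval lay within 2-fold for 6474 to 8170. The highest of these counts came without Carlos E-L 35 replicate 3 or Noble E-L 35 replicate 2.

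With the replicate number as a block 1962 genes were called, 1938 of them among the 2670. Same-numbered libraries of different groups deviated together at r of -0.283 to 0.364 across genes, over 0.1 in 5 of 18 pairs, so the numbers were not taken to pair the samples. Of the single genes over all alternatives, 765 values kept direction and call, 29 lost the call, 13 gained one and 1 turned. These genes were named by whether their calls held or changed in some of these same fits. The tally was therefore largely set by that choice, and nothing about stability is read from it. The value that turned was VIT_13s0064g01660 at -0.31 without Noble E-L 35 replicate 3. For this gene all 12 libraries gave 4.05, and single libraries left out gave up to 8.25 (without Carlos E-L 35 replicate 3), none of them called.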
